A study of Mus musculus with 6 samples.

Results

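Interferon-induced and antigen presentation families were followed in whole livers of male mice after hepatic ischemia-reperfusion (I/R). The control livers (IR1 to IR3) came from Fgf18 f/f mice, for which the label gives IR in place of a genotype, and the knockout livers (18KO-1 to 18KO-3, labelled FGF18 KNOCKOUT) came from mice that lacked Fgf18 in hepatic stellate cells (HSCs). Deletion was driven by a GFAP-Cre transgene on a C57BL/6 background, and all 6 livers had 1 h of ischemia and 6 h of reperfusion, so neither group was free of injury. Age was not given in the sources used here, the study calls its samples biologically independent although the labels name no mice, and values of Fgf18 are not used here, which leaves the labelled genotypes unchecked at the deleted gene itself. Members were the protein-coding genes whose symbols begin with the names of the interferon regulatory factor, STAT, SOCS, guanylate-binding protein, Ifi, Ifit, OAS, PARP, immunoproteasome and H2 families, among others. Of 139 such genes in the mouse annotation, 22 were among the 3201 genes in the deposited table, and the other members were not analysed here.

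As background, interferons and many interleukins bind receptors that carry Janus kinases, which phosphorylate STAT proteins, and STATs and interferon regulatory factors (IRFs) then switch on genes through GAS and ISRE elements. Among the induced genes are large GTPases that attack vacuoles of intracellular microbes, enzymes of antiviral defence, and the proteasome and MHC proteins that cut and display peptides to T cells. SOCS proteins are induced by the same signals and shut them down. In injured liver, these genes are used by hepatocytes, Kupffer cells, sinusoidal endothelium and recruited leukocytes alike.

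Every gene of the table had been kept by the authors because it differed between the same groups of livers by more than 1 either way on the log2 scale, at a p under 0.05 before adjustment. For this reason a member's adjusted p is not independent of how the table was made, and the counts below are read against all 3201 genes. Values are in TPM, a transcript abundance corrected for length and library size, and can be set side by side between genes. Differences are 18KO minus IR on the log2(TPM + 0.1) scale with a standard error (SE). To be called, a gene needed a limma p under 0.05 after Benjamini-Hochberg adjustment and a difference beyond 1 either way. Means are given ± SD over 3 livers. Between 92.2% and 92.6% of a liver's values came out as whole reads. The members together held 16735 to 28632 recovered reads in an IR liver and 5818 to 8936 in an 18KO liver. These sums are estimates, since reads came out whole in every liver for 19 of the 22 and not for Socs1, Socs5 and H2-DMb1.

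By symbol, 14 of the 22 members had a RefSeq promoter window (GRCm38.p6), with 17 windows in all. In 14 of the 17, the bases after the start lay in an annotated transcript of the gene. Of the 14 members, 8 held an ISRE (GAAA, then any 2 bases, then GAAA) or a GAS (TTC, then any 3 bases, then GAA) on either strand. An ISRE was found for 6 members and a GAS for 5. Of 27025 genes with a window, 3.99% held the ISRE letters and 9.55% the GAS letters, over 250 bases before to 50 after a start (3.44% and 8.3% of 32851 windows). The upstream stretches from -250 to -41 of 6 members are shown, 5′ to 3′ on the gene's strand, because they carry the elements named beside the results, with the matched letters in capitals. A match describes the letters in this window and no factor was measured on them.
Gbp5 promoter (plus strand), chr3:142496684-142496893: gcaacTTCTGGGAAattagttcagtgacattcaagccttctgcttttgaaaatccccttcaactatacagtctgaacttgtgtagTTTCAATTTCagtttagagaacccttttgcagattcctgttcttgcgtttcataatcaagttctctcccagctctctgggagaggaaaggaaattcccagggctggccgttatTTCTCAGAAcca
Tgtp1 promoter (minus strand), chr11:48992287-48992496: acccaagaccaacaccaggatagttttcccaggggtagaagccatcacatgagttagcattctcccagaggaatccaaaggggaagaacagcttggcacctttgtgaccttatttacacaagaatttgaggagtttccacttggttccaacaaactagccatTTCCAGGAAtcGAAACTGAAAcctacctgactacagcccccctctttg
Socs1 promoter (minus strand), chr16:10785577-10785786: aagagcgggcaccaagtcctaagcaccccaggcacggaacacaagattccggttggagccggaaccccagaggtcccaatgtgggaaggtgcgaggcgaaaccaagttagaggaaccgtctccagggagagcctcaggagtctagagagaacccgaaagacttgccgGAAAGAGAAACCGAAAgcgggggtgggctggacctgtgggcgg
Socs3 promoter (minus strand), chr11:117969407-117969616: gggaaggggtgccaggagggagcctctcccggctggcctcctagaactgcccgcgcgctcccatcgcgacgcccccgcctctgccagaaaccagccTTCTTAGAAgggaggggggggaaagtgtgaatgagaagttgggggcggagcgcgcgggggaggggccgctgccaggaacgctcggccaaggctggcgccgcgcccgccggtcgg
Irf1 promoter (plus strand), chr11:53769764-53769973: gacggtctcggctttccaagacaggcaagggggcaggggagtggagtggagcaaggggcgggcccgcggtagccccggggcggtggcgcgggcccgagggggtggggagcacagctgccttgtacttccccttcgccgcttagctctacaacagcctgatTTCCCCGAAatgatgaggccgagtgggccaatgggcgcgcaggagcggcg
Oas3 promoter (minus strand), chr5:120777700-120777909: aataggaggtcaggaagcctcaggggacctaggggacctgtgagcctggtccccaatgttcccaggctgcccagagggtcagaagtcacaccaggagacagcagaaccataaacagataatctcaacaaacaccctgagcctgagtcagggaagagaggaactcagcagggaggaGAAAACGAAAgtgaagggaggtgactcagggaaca
Gbp5 held an ISRE at -165 and a GAS at -245 and at -52. In Tgtp1 a GAS at -88 stood beside an ISRE at -77, whereas Socs1 had 2 overlapping ISREs at -83 and -77 and Oas3 a single one at -75. Socs3 and Irf1 each held a GAS alone, at -154 and -90. The elements of Parp11 overlapped, an ISRE at -44 and a GAS at -37, and Ifi205 held an ISRE at -134 and another at 24. Neither element was in the windows of Irf7, Psmb10, Stat5a, Ifi47, H2-DMb1 or H2-Q2, or in a further window of Irf1 and of Parp11.

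Most of the members were lower in 18KO livers. Of the 22, 12 were called lower, 5 were called higher and 5 were not called, beside 30.0% called lower, 41.6% called higher and 71.7% called in either direction over the whole table. Whether called or not, 15 members were lower and 7 higher, against 34.9% lower and 65.1% higher of all genes. All 22 had an adjusted p under 0.05 with no limit on size, as had 97.3% of the table. The median difference was -1.11 for the members and 0.88 for all 3201 genes. Direction in the table went with expression level. Among 1424 genes averaging 1 TPM or more, 61.1% were lower in 18KO, against 14.0% of the 1777 genes under 1 TPM. Of the members, 13 of the 16 at 1 TPM or more and 2 of the 6 under 1 TPM were lower. The groups did not overlap for any of the 22 members, but the same was true of 96.3% of the table. In whole liver, fewer cells of a type and less RNA per cell cannot be told apart. No member changed sign under any of the 15 other settings it entered. Several of these settings keep each difference as it was, so no sign could change there. When each liver was rescaled by the median, over the listed genes, of its value relative to the 6-liver mean, the genes moved by a median of -0.88 (log2) and the median difference of all genes went from 0.88 to 0.19. The members then split into 1 called higher and 15 called lower. The table held 281 genes called higher and 1115 called lower, in place of 1333 and 961. The rescaling factors were 0.57 to 0.65 in IR livers and 1.12 to 1.36 in 18KO livers. They came from genes that were all chosen for differing between these groups. This setting therefore moves differences downward and cannot decide which members differ.

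**Figure D1:**
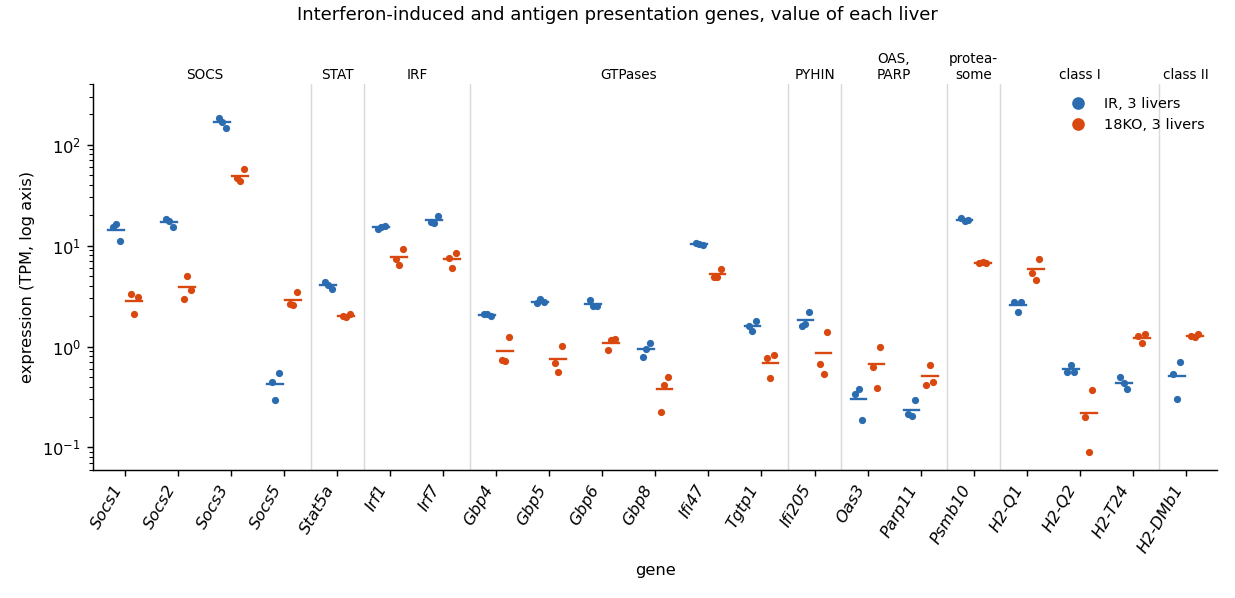
Expression in TPM (log axis) of 21 of the genes, ordered by role, in the 3 IR livers (blue) and the 3 18KO livers (orange), with a bar at each group's mean. Socs3 stands above all others at 148 to 183 TPM in IR, and the GTPases are lower in every 18KO liver than in every IR liver.

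The 3 largest differences were in the SOCS family, of which 4 of 7 annotated genes were listed. Socs1, Socs2 and Socs3 fell and Socs5 rose. Socs1 (ENSMUSG00000038037, chr16:10782240-10785536), the inhibitor of Janus kinases that restrains interferon signalling, was at 15.4, 16.2 and 11.0 TPM in IR and at 3.28, 2.09 and 3.11 TPM in 18KO. The lowest IR liver was 3.36 times the highest 18KO liver. Its mean went from 14.2 ± 2.78 to 2.83 ± 0.642 TPM, a difference of -2.29 (SE 0.22, adjusted p = 5.86e-05).

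Socs3 (ENSMUSG00000053113, chr11:117966079-117970047), the feedback inhibitor of interleukin-6 signalling, was the most abundant member. It was at 183, 168 and 148 TPM in IR and at 46.7, 43.9 and 57.9 TPM in 18KO, and made up 56.4 to 60.5% of all member TPM in IR livers and 44.4 to 46.7% in 18KO livers. All 3 knockout livers were thus below all controls. The difference was -1.75 (SE 0.14, adjusted p = 3.21e-05), from 166 ± 17.9 to 49.5 ± 7.39 TPM. Without Socs3, the other 21 members still summed to 114 to 120 TPM in IR and 55.0 to 66.0 TPM in 18KO.

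Socs2 (ENSMUSG00000020027, chr10:95385362-95417180), which damps growth hormone receptor signalling in hepatocytes, was at 18.5, 17.5 and 15.4 TPM in IR and at 2.97, 5.0 and 3.61 TPM in 18KO. It fell by 2.15 on the log2 scale (SE 0.19, adjusted p = 4.94e-05), with 4.53% of its 50-base stretches also found in other genes. Socs5 (ENSMUSG00000037104, chr17:87107679-87137839), a relative whose partners are less settled, went the other way. It was at 0.442, 0.296 and 0.544 TPM in IR and at 2.63, 2.59 and 3.48 TPM in 18KO, and the groups were separated by a factor of 4.77, the widest gap of any member. The difference was 2.52 (SE 0.23, adjusted p = 5.44e-05), and 1.62 with rescaled livers, which was still called. Its 18KO mean was 2.90 ± 0.498 TPM, beside 2.83 ± 0.642 TPM for Socs1 in the same livers.

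The only STAT gene listed of 7 was Stat5a (ENSMUSG00000004043, chr11:100859351-100885169), which carries growth hormone and cytokine signals to the nucleus. It was at 4.4, 4.11 and 3.72 TPM in IR and at 2.0, 1.95 and 2.08 TPM in 18KO. The 18KO livers lay close together, and all were below the controls. With a difference of -0.98 (SE 0.14, adjusted p = 0.000311) it just missed the limit on size and was not called. It was called in 6 of 15 alternatives, among them without IR replicate 3 (-1.05), without 18KO replicate 3 (-1.01) and with rescaled livers (-1.99). It was not called without IR replicate 1 (-0.93) or 18KO replicate 2 (-0.96). Stat5b shared 8.21% of its 50-base stretches.

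Of the IRF genes, Irf7 (ENSMUSG00000025498, chr7:141262706-141266481), the factor that drives interferon-alpha production, was at 17.1, 16.9 and 19.5 TPM in IR and at 7.55, 5.93 and 8.49 TPM in 18KO. Each 18KO liver was under 9 TPM and each IR liver above 16. It fell by 1.29 on the log2 scale (SE 0.15, adjusted p = 0.000157).

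Irf1 (ENSMUSG00000018899, chr11:53770014-53778374), an early target of interferon-gamma, was even across controls at 14.7, 15.2 and 15.7 TPM and lower in every knockout liver at 7.35, 6.47 and 9.27 TPM. The difference of -0.99 (SE 0.15, adjusted p = 0.000464) was not called. Without 18KO replicate 3, the highest of the knockout livers, it was -1.13 and called, and without IR replicate 1 it was -1.01 and called. Leaving out any other liver gave -0.99 to -0.87, not called. Gm17334, annotated across 907 bases on the opposite strand, was called lower at -1.09, and whether counting used strand was not stated.

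**Figure D2:**
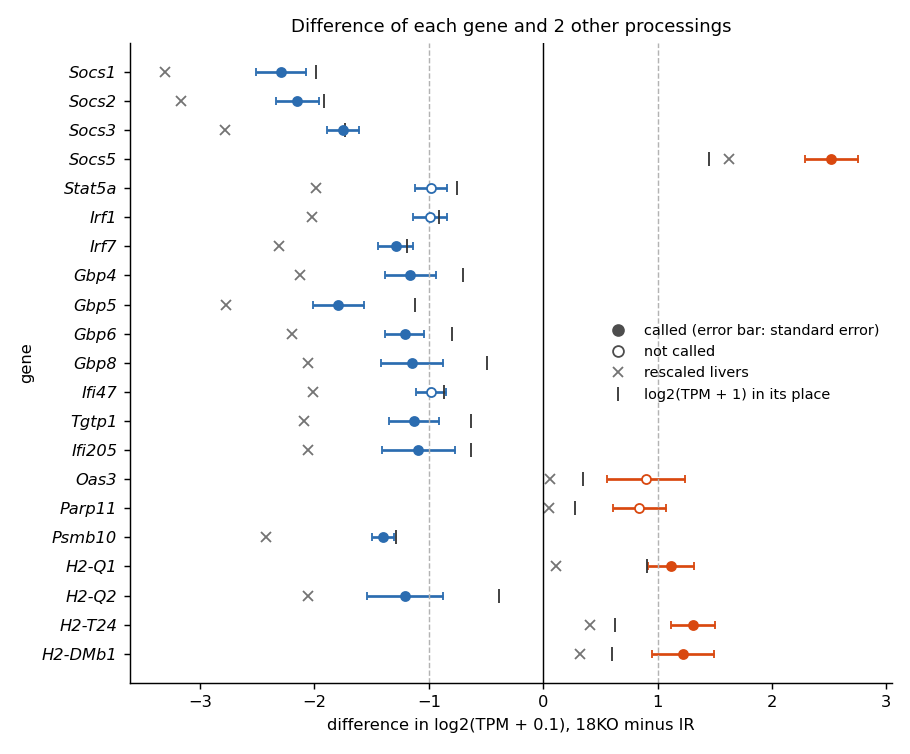
Difference in log2(TPM + 0.1), 18KO minus IR, for 21 members with their standard errors (filled, called; open, not called), beside the difference with rescaled livers (crosses) and with log2(TPM + 1) in its place (ticks); dashed lines mark the limit of 1 either way. The 15 genes that were lower stay lower under both, while of those drawn that were higher only Socs5, at 2.52, stays past 1.

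All 6 immunity GTPases listed (of 17 annotated) were lower in 18KO livers, and 5 of them were called. Over the table, 34.9% of genes were lower and 30.0% were called lower. Among genes at 1 TPM or more, 61.1% were lower. With log2(TPM + 1) only Gbp5 was called, and Gbp4, Gbp6, Gbp8 and Tgtp1 were at -0.70, -0.80, -0.49 and -0.63. Summed over the 6 genes, the level was 20.6, 20.3 and 20.3 TPM in IR and 8.20, 8.21 and 10.7 TPM in 18KO. The controls were nearly equal and all knockout livers were lower. These proteins assemble on the membranes around intracellular bacteria and parasites and are strongly induced by interferon-gamma. In all 6 genes, the highest 18KO liver was replicate 3, which was the highest for 40.4% of the genes in the table and for 17 of the 22 members.

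Gbp5 (ENSMUSG00000105504, chr3:142493978-142522344), which promotes inflammasome assembly, had the largest difference of the group. It was at 2.68, 2.94 and 2.75 TPM in IR and at 0.690, 0.562 and 1.02 TPM in 18KO. The highest knockout liver was 2.63 times below the lowest control. It fell by 1.79 on the log2 scale (SE 0.22, adjusted p = 0.000162), and by 2.0 without 18KO replicate 3. Gbp5 was also 1 of 7 members called in every alternative they entered, together with Irf7, Psmb10, Socs1, Socs2, Socs3 and Socs5.

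Gbp4, Gbp6 and Gbp8 lie in a cluster on chromosome 5 that spans 332 kb with Gbp11 (chr5:105014150-105346472). Gbp6 (ENSMUSG00000104713) was at 2.89, 2.51 and 2.54 TPM in IR and at 0.915, 1.15 and 1.20 TPM in 18KO. Gbp4 (ENSMUSG00000079363) was at 2.11, 2.08 and 1.99 TPM in IR and at 0.727, 0.716 and 1.24 TPM in 18KO. Gbp8 (ENSMUSG00000034438), the lowest of them and named outside the rule for named genes, was at 0.792, 0.952 and 1.08 TPM in IR and at 0.224, 0.418 and 0.499 TPM in 18KO. In none of the 3 genes did the groups overlap, nor did they for 96.3% of the table. The differences were -1.21 (SE 0.17, adjusted p = 0.000308) for Gbp6, -1.16 (SE 0.22, adjusted p = 0.00156) for Gbp4 and -1.15 (SE 0.27, adjusted p = 0.00399) for Gbp8. Gbp8 was -0.89 and not called without 18KO replicate 1. The genes are alike in sequence, so reads may have been split among them. Other genes held 70.7% of the 50-base stretches of Gbp6, 18.1% of those of Gbp8 and 7.7% of those of Gbp4, and Gbp4 and Gbp8 overlap on the same strand.

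Tgtp1 and Ifi47, both immunity-related GTPases, lie within 112 kb of each other on chromosome 11. Tgtp1 (ENSMUSG00000078922, chr11:48985327-48994172) was at 1.6, 1.44 and 1.78 TPM in IR and at 0.767, 0.490 and 0.820 TPM in 18KO. It fell by 1.13 on the log2 scale (SE 0.22, adjusted p = 0.00162), but by 0.93, and uncalled, without 18KO replicate 2. As much as 81.2% of its 50-base stretches were shared, chiefly with its near copy Tgtp2, and how their reads were divided is not known. Ifi47 (ENSMUSG00000078920, chr11:49076587-49096974), also outside the naming rule, was the most abundant GTPase, at 10.5, 10.4 and 10.2 TPM in IR and 4.87, 4.87 and 5.91 TPM in 18KO. Its difference of -0.98 (SE 0.13, adjusted p = 0.000208) was not called, although every knockout liver was below every control, and became -1.07 and called without 18KO replicate 3. Without 18KO replicate 1 or 2 it was -0.94 and not called.

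Ifi205 (ENSMUSG00000054203, chr1:174011998-174031810), of the PYHIN family of DNA-binding proteins, was the only one listed of 15 genes for nucleic acid sensing and its feedback. It was at 1.59, 1.69 and 2.22 TPM in IR and at 0.669, 0.533 and 1.38 TPM in 18KO. Here 18KO replicate 3 came close to the lowest control. The difference was -1.09 (SE 0.32, adjusted p = 0.0105). It was no longer called without IR replicate 3 (-0.96), 18KO replicate 1 (-0.98) or 18KO replicate 2 (-0.84).

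Antiviral effectors were thinly covered, with 2 of 40 annotated genes listed and none of the 6 Ifit genes, and neither was called. Oas3 (ENSMUSG00000032661, chr5:120753098-120777661), which makes the oligoadenylates that activate RNase L, was at 0.338, 0.381 and 0.188 TPM in IR and at 0.627, 0.389 and 1.0 TPM in 18KO. The groups nearly touched at 0.381 and 0.389 TPM. Its difference was 0.90 (SE 0.34, adjusted p = 0.0316), with a range of 0.60 to 1.19 when single livers were left out. It was called without IR replicate 2 (1.04) or 18KO replicate 2 (1.19). Parp11 (ENSMUSG00000037997, chr6:127446840-127494261), a mono-ADP-ribosyltransferase, was at 0.213, 0.204 and 0.292 TPM in IR and at 0.419, 0.661 and 0.446 TPM in 18KO. The difference was 0.84 (SE 0.23, adjusted p = 0.00855). With rescaled livers these values were 0.06 for Oas3 and 0.05 for Parp11, and with log2(TPM + 0.01) both were called, at 1.08 and 1.06.

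For peptide supply to class I molecules, Psmb10 (ENSMUSG00000031897, chr8:105935735-105938444), a catalytic subunit of the immunoproteasome, was the single gene listed of 6. It was at 18.6, 17.4 and 18.0 TPM in IR and at 6.79, 6.87 and 6.67 TPM in 18KO. Both groups were tight and far apart. It fell by 1.40 on the log2 scale with the smallest error of any member (SE 0.10, adjusted p = 2.4e-05), and the difference lay between -1.42 and -1.37 whichever liver was left out. Psme1, which encodes a subunit of the proteasome activator and is no member, was at 39.3, 40.6 and 41.4 TPM in IR and at 21.2, 20.0 and 19.7 TPM in 18KO, a difference of -0.99 (SE 0.10, adjusted p = 7.08e-05) that was not called.

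Class I heavy chain genes moved both ways, with 3 of 24 listed. All 3 are nonclassical genes within the MHC of chromosome 17. H2-Q1 (ENSMUSG00000079507, chr17:35320405-35325099) was at 2.76, 2.21 and 2.76 TPM in IR and at 5.39, 4.6 and 7.40 TPM in 18KO. H2-T24 (ENSMUSG00000053835, chr17:36005695-36020560) was at 0.496, 0.432 and 0.382 TPM in IR and at 1.28, 1.08 and 1.32 TPM in 18KO. Both rose without overlap, H2-Q1 by 1.12 (SE 0.20, adjusted p = 0.00101) and H2-T24 by 1.31 (SE 0.19, adjusted p = 0.000397). With rescaled livers they were 0.11 and 0.41 and not called, and H2-Q1 was 0.93 and not called without 18KO replicate 3.

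H2-Q2 (ENSMUSG00000091705, chr17:35342242-35346762) lies next to H2-Q1 and went down. It was at 0.565, 0.659 and 0.560 TPM in IR and at 0.199, 0.090 and 0.371 TPM in 18KO, from 33, 32 and 22 reads against 9, 3 and 16 reads. The knockout livers spread widely at this depth. The difference was -1.21 (SE 0.33, adjusted p = 0.0074), and -0.89 without 18KO replicate 2, when it was not called. Other genes held 16.1% of its 50-base stretches and 15% of those of H2-Q1, among them the other gene of the pair.

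Of 10 class II genes, only H2-DMb1 (ENSMUSG00000079547, chr17:34153072-34160230) was listed, a chain of the chaperone that loads peptides onto class II molecules. It was at 0.528, 0.302 and 0.710 TPM in IR and at 1.27, 1.23 and 1.33 TPM in 18KO. The controls varied more than the knockout livers, which were all higher. It rose by 1.22 (SE 0.27, adjusted p = 0.00286), but by 0.95, uncalled, without IR replicate 2, and by 0.32, uncalled, with rescaled livers. Its near copy H2-DMb2 shared 22.7% of its 50-base stretches.

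**Figure D3:**
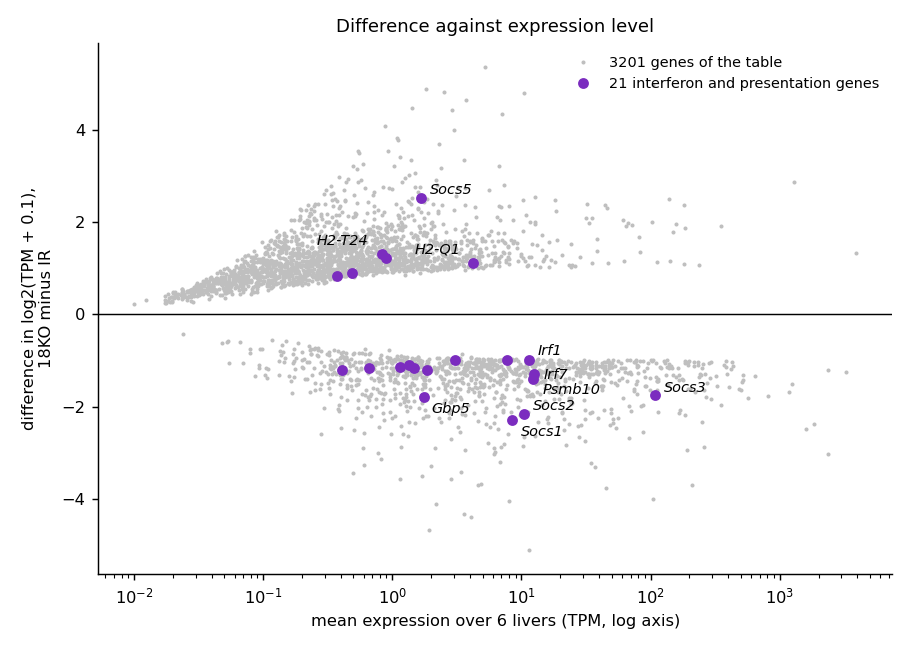
Mean expression over 6 livers (TPM, log axis) against the difference in log2(TPM + 0.1), 18KO minus IR, for the 3201 genes of the table (grey) and 21 of the members (purple). Genes that were higher in 18KO crowd at low levels, and 13 members at 1 TPM or more lie below zero; the empty band around zero reflects the authors' choice of genes.

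The genes that feed these pathways were listed in part, with 16 of 67 chosen cytokines and receptors in the table. Of these, 5 were called higher, 8 were called lower and 3 were not called, and their median difference was -1.03, against 0.88 over all genes. With rescaled livers 1 was called higher and 9 lower, and with log2(TPM + 1) 2 were called higher and 5 lower. Il10, which induces Socs3 in macrophages, was at 17.1, 16.7 and 12 TPM in IR and at 0.442, 1.3 and 0.965 TPM in 18KO. It fell by 4.03 on the log2 scale (SE 0.33, adjusted p = 3.55e-05). Il6, another inducer of Socs3, was at 2.98, 3.16 and 2.86 TPM in IR and at 0.754, 0.243 and 0.958 TPM in 18KO, and fell by 2.20 (SE 0.38, adjusted p = 0.00098). The receptor chain Il15ra, itself interferon-induced, fell from 16.6 ± 1.55 to 3.56 ± 0.650 TPM, a difference of -2.20 (SE 0.16, adjusted p = 2.22e-05). All 3 were lower in each knockout liver than in each control. The other listed cytokines moved both ways. Csf3, Il27, Ebi3 and Il18 were called lower, and Ctf1 was lower but not called. Il11 and Lif were called higher, and Osm was higher but not called, with groups that overlapped. The part of any of these cytokines in the level of Socs3 was not tested.

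Receptors that signal through STATs moved both ways, and Lepr, Csf2rb and Csf3r were higher in 18KO. Lepr, the leptin receptor, went from 3.51 ± 0.335 to 8.97 ± 0.556 TPM and Csf2rb, the shared chain of the GM-CSF receptor, from 2.71 ± 0.410 to 6.63 ± 1.68 TPM. Their differences were 1.33 (SE 0.13, adjusted p = 6.68e-05) and 1.24 (SE 0.20, adjusted p = 0.000674). Csf3r, the G-CSF receptor of neutrophils, was at 5.38, 5.31 and 3.92 TPM in IR and at 9.76, 6.82 and 17.0 TPM in 18KO. Its difference of 1.10 (SE 0.31, adjusted p = 0.00881) was 0.75 and not called without 18KO replicate 3, and 0.95 and not called without IR replicate 3. With rescaled livers, Lepr, Csf2rb and Csf3r were not called, at 0.32, 0.23 and 0.08, and Ghr was at -2.13.

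Another 12 of 100 interferon-stimulated and presentation genes outside the families were listed. Of these, 6 were called higher, 3 were called lower and 3 were not called, with a median difference of 1.04, beside 41.6% called higher and 30.0% called lower over the table. With rescaled livers the balance turned, with 0 called higher and 5 lower, and with log2(TPM + 1) 4 were called higher and 2 lower. Ccl5, a chemokine for T cells, was at 5.76, 5.38 and 5.03 TPM in IR and at 2.01, 0.614 and 1.53 TPM in 18KO, and fell by 2.02 (SE 0.36, adjusted p = 0.00105). Relb, a subunit of noncanonical NF-kappaB, fell by 1.16 (SE 0.15, adjusted p = 0.000194), and Cd1d1, which presents lipids to natural killer T cells, fell by 1.04 (SE 0.10, adjusted p = 5.8e-05). Higher in 18KO were Slfn1, Slfn4 and the necroptosis effector Mlkl. Slfn4, a myeloid Schlafen gene, was at 2.49, 2.47 and 2.68 TPM in IR and at 6.71, 3.85 and 13.7 TPM in 18KO. The knockout livers differed widely, and its difference of 1.44 (SE 0.39, adjusted p = 0.00732) was 0.97 and not called without 18KO replicate 3. Slfn1 and Mlkl differed by 1.92 (SE 0.46, adjusted p = 0.0045) and 1.34 (SE 0.18, adjusted p = 0.000311). With rescaled livers, the 3 were not called, at 0.97 for Slfn1, 0.43 for Slfn4 and 0.34 for Mlkl.

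**Figure D4:**
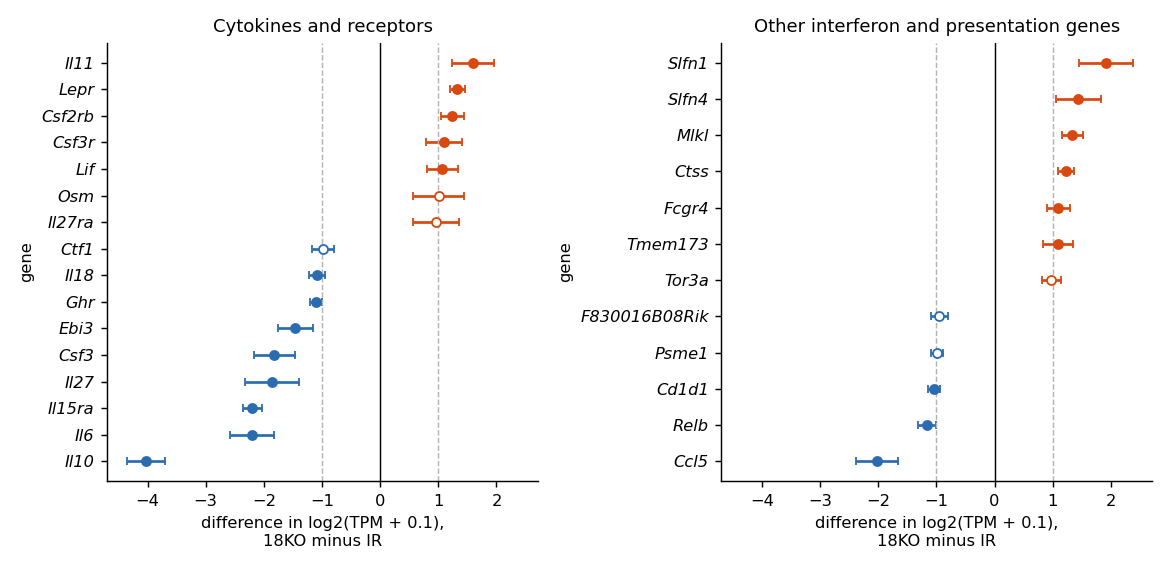
Difference in log2(TPM + 0.1), 18KO minus IR, with standard errors, for the listed cytokines and receptors (left, 16 genes) and other interferon-stimulated and presentation genes (right, 12 genes); filled points were called and dashed lines mark the limit of 1 either way. Il10 at -4.03 lies farthest from zero.

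Markers of cells that use these genes differed between the same livers. They are read against the table, where 65.1% of genes were higher and 41.6% were called higher. Among genes under 1 TPM, where several of the markers lay, only 14.0% were lower. The 4 of 11 Kupffer cell and macrophage markers that were listed summed to 10.2 to 13.2 TPM in IR and 27.1 to 38.3 TPM in 18KO, all 4 higher and 3 called, except that with rescaled livers Adgre1 turned to -0.03 and none of the 4 was called. Monocyte markers (3 of 4 listed) summed to 1.43 to 1.81 TPM in IR and 5.76 to 16.3 TPM in 18KO, neutrophil markers (2 of 7) to 6.16 to 7.69 and 9.80 to 27.1 TPM, and sinusoidal endothelial markers (2 of 5) to 11.0 to 13.1 and 22.2 to 34.4 TPM. The neutrophil markers were Cxcr2 and Csf3r, the latter also counted among the receptors above. Without 18KO replicate 3 they were at 0.86 and 0.75 and not called. The 6 HSC markers, all listed, summed to 2.24 to 3.41 TPM in IR and 6.93 to 8.77 TPM in 18KO. Cyp2e1, the single hepatocyte marker listed of 5, was at 1660 to 1955 TPM in IR and 461 to 686 TPM in 18KO. It was abundant in both groups but was called lower, with a difference of -1.67 (SE 0.16, adjusted p = 6.6e-05). None of the chosen markers of dendritic cells, B cells or T and NK cells was listed. With rescaled livers the 3 monocyte markers were still called, at 1.07 to 1.76. The listed markers of macrophages (-0.03 to 0.78), neutrophils (0.08 to 0.27), sinusoidal endothelium (0.10 to 0.77) and HSCs (0.08 to 0.99) then were not. The part of these cells in the members' differences was not tested.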

How the data were processed

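RNA of 6 whole livers was extracted with TRIzol and made into stranded mRNA libraries. Per the submitters' processing notes, the tools were cutadapt 2.5, HISAT2 2.1.0 and featureCounts 1.6.3 on mm10. In 1 table of 3201 genes, the authors deposited a value per liver beside the log2 fold changes and p-values of their own DESeq2 comparison, which were read only to find how genes had been selected. The deposited values carry no unit name and were taken as TPM, since value times joined exon length (GENCODE, GRCm38) was a whole multiple of 1 constant per liver for nearly all values (tolerance 0.02 reads). One read on 1 kb was worth 0.0374 to 0.0655 TPM, and the listed genes held 3.89 to 7.93% of a liver's TPM, so totals beyond them are known only from this constant. Read counts and floors of 3 reads cover counting error only.

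The members and gene lists were chosen with earlier results of these data known. Groups came from the labels. Differences on log2(TPM + 0.1) were fitted over all 3201 genes by limma 3.58.1 (lmFit, eBayes with trend; R 4.3.3), without block or low-value filter. The p-values measure the spread between these livers. Genes were named by a rule. It took every member of a role with 5 or fewer listed members. In a longer role it took the 4 largest differences in each direction, and in the other lists the 3 largest. Both of the latter kinds were limited to called genes whose groups did not overlap and averaged 1 TPM or more in 1 of them. Ifi47, Gbp8, Psme1, Lif, Il11, Osm, Ghr, Adgre1, Cxcr2 and Cyp2e1 were named beyond the rule after their values were seen. Gm17334, Gbp11, H2-Q5 and H2-Bl were also named outside it. On simulated data, 96 of 100 genes changed by 1.5 (log2) and 100 of 100 changed by 3 were recovered, with 6 false calls among 3201. Shared sequence was the share of a gene's 50-base transcript stretches also found in transcripts of other genes. Same-numbered livers of the 2 groups correlated by 0.006 to 0.057 in their deviations, so the numbers were not treated as pairs. 1 member entered the counts and sums but is not reported here by name or value.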

Additional observations from a re-analysis of the deposited data

How the results depend on the processing

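For the 22 members, 321 values were computed under 15 other settings. No value changed sign, 278 kept their side of the threshold, 22 lost the call and 21 gained it. The 1 TPM filter, the fit without trend, the protein-coding fit, the replicate block and the removed size limit kept each difference as it was. No sign could change in these settings, and removing the size limit could only add calls. With log2(TPM + 1), which shrinks low genes, 1 member was called higher and 6 lower, and of all listed genes 266 were called higher and 566 lower. With a mean of at least 1 TPM, 16 members entered and 3 were called higher, as were 522 genes of the table. With rescaled livers, 1 member was called higher, 281 genes of the table were called higher, and Adgre1 turned to -0.03; the cause was not tested. With no limit on the size of the difference, 2005 genes were called higher. Leaving out 1 liver at a time gave 4 to 6 members higher and 9 to 15 lower (9 without 18KO replicate 2, 15 without 18KO replicate 3). Over the table it gave 1204 to 1377 genes higher and 907 to 975 lower. The replicate block, whose pairing rests on shared numbers alone, changed 0 member calls and gave 1337 genes higher and 963 lower. A limma-voom fit on recovered reads, chosen after seeing the data, called 5 members higher and 12 lower of the 19 members with whole reads, and 1890 genes higher and 958 lower of 2940. Depth limits H2-Q2 most, with 3 reads in its lowest liver.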

Other observations

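Gbp11, H2-Q5 and H2-Bl carry names of these families but are annotated as polymorphic pseudogenes, whose reading frame is open in some mouse strains. Gbp11, in the Gbp cluster, was at 3.80, 3.82 and 4.58 TPM in IR livers and at 0.842, 0.656 and 0.713 TPM in 18KO livers, a difference of -2.32 that is larger than that of any protein-coding Gbp gene listed. H2-Q5 was at 15.2, 16.4 and 13 TPM in IR and at 7.79, 5.68 and 7.40 TPM in 18KO, above H2-Q2 and H2-T24 in every liver. It was above H2-Q1 in every liver but 18KO replicate 3, where both were at 7.40 TPM, and H2-Q1 and H2-T24 differed in the opposite direction. H2-Bl was at 1.51, 1.15 and 0.858 TPM in IR and at 0.545, 0.506 and 0.240 TPM in 18KO. The differences of H2-Q5 and H2-Bl were -1.09 and -1.29. Reads of these rows can be hard to tell from those of their relatives.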
